A study of Mus musculus with 48 samples.

Results

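Adult mouse neural stem cells held in quiescence medium were compared between days 5 and 9 of culture, without any deletion. The comparison rested on 8 RNA-seq libraries out of 48 in the whole series: 4 of the group WT_Day5 and 4 of the group WT_Day9. The members were all libraries that the labels place in these groups, and every gene with enough counts was tested. The cells came from the dentate gyrus of 7 to 8-week-old mice carrying Hopx-CreERT2, floxed Setd1a on both alleles and an H2B-GFP reporter. They were grown with FGF2 and EGF and then moved into medium with BMP4 and FGF2 and without EGF. At day 2 they received a lentivirus: GFP alone for the WT cultures, Cre-GFP for the Setd1a KO cultures. WT therefore means an intact floxed Setd1a gene, and the CreERT2 transgene, the reporter and the infection itself were common to all groups. The study describes independent cultures, whereas the labels only number the samples, so that p-values may measure technical spread. The medium was replaced every 2 days. Time in culture and time since infection differ together between the groups and cannot be told apart.

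Quiescent neural stem cells are non-dividing precursors that can re-enter the cell cycle. In the adult dentate gyrus they are radial glia-like cells, which share many transcripts with astrocytes. BMP signalling, acting through SMAD proteins and the ID factors, holds such cells out of the cycle and favours astrocytic features, while FGF and EGF act through the ERK cascade and drive division. Quiescent stem cells are known for active lysosomes, a dependence on lipid metabolism and a low rate of protein synthesis. Genes of these systems, from glial markers and the replication machinery to sterol synthesis, lysosomes and translation, were therefore followed as lists.

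The 4 WT_Day5 libraries held 4406174 to 7261901 gene counts and the 4 WT_Day9 libraries 7424134 to 11027335, so that the later time point was also the more deeply sequenced. Markers of neural stem cells and radial glia summed to 17437 to 18194 CPM (counts scaled to a common library size) on day 5. On day 9 they summed to 16584 to 17286 CPM, lower and without overlap, and none of the 10 was at 0 in all libraries. The lower sum does not describe the markers as a set: of the 9 tested, 3 were called higher and 1 lower. The 1 lower was Fabp7, with means of 7471 and then 5988 CPM, while Vim went from 2565 to 3616 CPM. The 6 astrocyte markers summed to 1033 to 1084 CPM and then to 1381 to 1492 CPM, without overlap. Markers of other cells were lower on both days: neurons 55.7 to 61.3 CPM and then 57.0 to 64.6 CPM, the oligodendrocyte lineage 171 to 195 CPM and then 165 to 187 CPM, endothelial and mural cells 23.3 to 26.6 CPM and then 21.2 to 24.6 CPM. Of the 4 neuronal markers tested 1 rose and 3 fell, among these Tubb3 from 10.8 to 6.77 CPM, a call lost in 4 of 21 other settings (adjusted p = 0.0784 in summed libraries). Prox1, which rose, held most of the neuronal sum (43.2 and then 51.8 CPM). Its call was lost in 14 of 21 other settings, among them summed libraries (adjusted p = 0.271) and leaving out any 1 library of these 8. Rgs5 held most of the endothelial and mural sum (23.4 and then 20.5 CPM). Microglia, fibroblasts and ependymal cells stayed under 10 CPM in every library. Rbfox3, Mog, Sox10, C1qa, Cdh5, Cldn5, Col3a1 and Lum were at 0 in all 8. Mitochondrially encoded mRNAs took 6.29% ± 0.0721 of the counts on day 5 and 8.75% ± 0.213 on day 9 (SD, n = 4 each, two-sided exact permutation p = 0.0286, adjusted p = 0.0413 over 13 measures, 0.0286 being the smallest p this design allows). Libraries 1 and 3 of each day, and likewise 2 and 4, lay closer to each other than the other pairs did: the chi-square statistic per degree of freedom was 1.83 and 1.83 on day 5 and 2.46 and 2.32 on day 9, against 3.03 to 3.90 and 7.31 to 9.35 for the other pairs. The labels do not say whether these pairs share a culture. Values with each such pair summed into 1 library, which leaves 2 libraries a group, are therefore given beside the results as "summed libraries".

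Of 12549 genes tested, 2848 (22.7%) differed between WT_Day9 and WT_Day5 at an adjusted p under 0.05 (edgeR's quasi-likelihood test, Benjamini-Hochberg adjustment over all genes tested), 1420 (11.3%) higher and 1428 (11.4%) lower on day 9. Most changes were small: 260 genes (2.07%) changed at least 2-fold, 173 (1.38%) upward and 87 (0.693%) downward. For 2329 of the called genes (18.6% of those tested) the 4 libraries of a day all lay on the same side of the 4 of the other. The median log2 fold change of all genes tested was 0.02. Scaling by library size alone, without the trimmed mean factors, gave 1147 higher and 1735 lower. With summed libraries 981 genes were called, 414 higher and 567 lower, and 975 of these were among the 2848. In a bulk library, fewer cells of a type and less RNA per cell cannot be told apart, which holds for every gene described here.

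**Figure D1:**
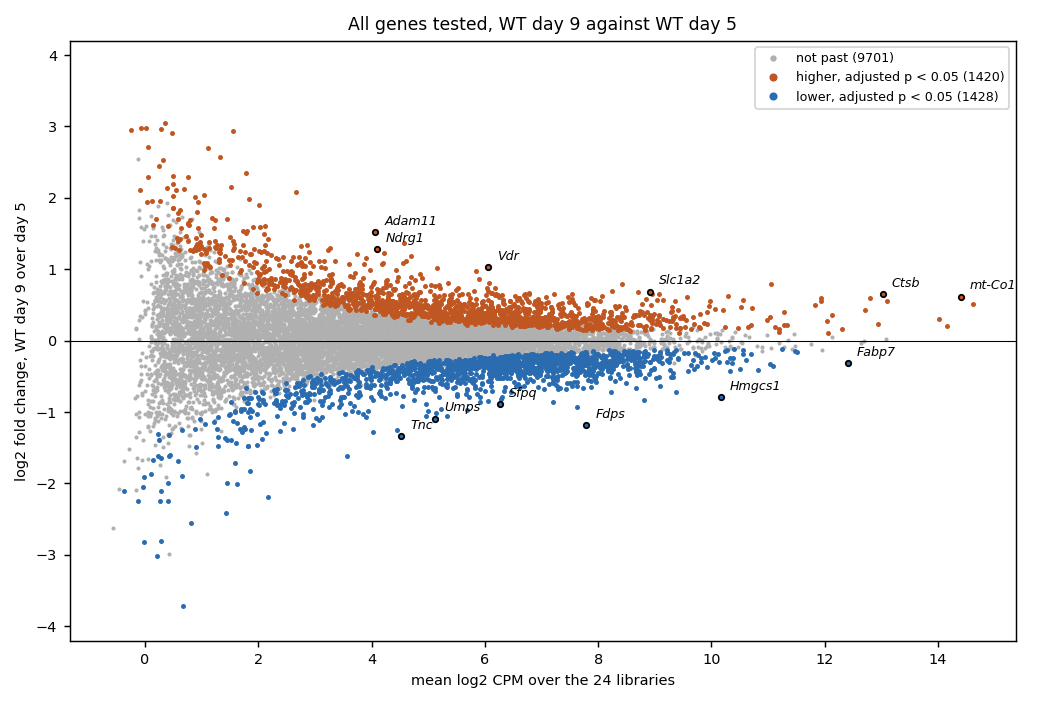
Each point is 1 of 12549 genes, with the mean log2 CPM over the 24 libraries of the fit on the x axis and the log2 fold change of WT day 9 over WT day 5 on the y axis. Orange points (1420) were higher and blue points (1428) lower at an adjusted p under 0.05, and the labelled genes, such as Adam11 at 1.52 and Tnc at -1.33, are described in the text.

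The genes that rose most among well-expressed ones were of mixed function. Adam11, which encodes a catalytically inactive membrane protein of the ADAM family, was at 5.59, 6.22, 8.16 and 6.47 CPM on day 5 and at 23, 17.2, 16.8 and 19.9 CPM on day 9 (log2 fold change 1.52, SE 0.19, adjusted p = 1.3e-07). Ndrg1 (chr15:66929318-66969640), a gene known to respond to hypoxia and differentiation, went from 6.71, 9.55, 8.74 and 8.81 CPM to 21.7, 19.0, 20.9 and 20.8 CPM (1.28, SE 0.13). Vdr, the vitamin D receptor, lay between 50.6 and 52.3 CPM in every day 5 library and between 103 and 108 CPM in every day 9 library (1.02, SE 0.08, adjusted p = 2.15e-11). The rule that chose these genes took only called genes whose days did not overlap. The lack of overlap is therefore no further evidence. Grm3, a metabotropic glutamate receptor, rose from 23.8 ± 3.25 to 47.8 ± 3.87 CPM (SD, n = 4). Lgals3bp, a secreted glycoprotein that binds galectins, rose from 11.4 ± 1.55 to 25.9 ± 2.39 CPM. Trim56, an E3 ubiquitin ligase of innate immunity, rose from 15.6 ± 3.69 to 33.0 ± 6.03 CPM. Fuca2, a fucosidase, rose from 12.6 ± 2.38 to 27.1 ± 3.96 CPM, and Ddo, which degrades D-aspartate, from 10.6 ± 2.44 to 22.6 ± 2.62 CPM. Amy1 rose 2.57-fold, but 32.7% of its exonic length is shared with Rnpc3, and Pcdha11 (1.99-fold) shares 53.4% with neighbouring protocadherin transcripts, so that unstranded counts may mix these genes.

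The genes that fell most included secreted matrix proteins and enzymes of nucleotide and isoprenoid synthesis. Tnc, encoding the matrix glycoprotein tenascin C (chr4:63959785-64047015), was at 25.9, 35.5, 25.2 and 33.2 CPM on day 5 and at 11.0, 11.8, 14.2 and 10.3 CPM on day 9 (log2 fold change -1.33, SE 0.14, adjusted p = 8.14e-09). Spp1, encoding osteopontin, lay between 21.3 and 22.8 CPM on day 5 and between 7.43 and 10.5 CPM on day 9 (-1.27, SE 0.15), with 18.8% of its exonic length shared with a predicted transcript. Cavin2, a coat protein of caveolae, fell from 23.7 ± 4.63 to 10.1 ± 0.912 CPM. All 4 day 9 libraries were below all 4 of day 5 for each of the 3, which the rule that chose them required. Umps, the last enzyme of uridine monophosphate synthesis, fell from 52.3 ± 5.87 to 24.6 ± 2.25 CPM. Omg, the oligodendrocyte-myelin glycoprotein, fell from 33.0 ± 4.63 to 15.9 ± 2.73 CPM. Sfpq, a splicing factor of paraspeckles, fell from 110 ± 3.16 to 59.6 ± 5.78 CPM (-0.89, SE 0.07, adjusted p = 2.13e-11). Ftsj3, which serves ribosome assembly, and Nme6, a nucleoside diphosphate kinase, fell to 0.50 and 0.53 of their day 5 level.

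Genes of mature astrocytes were higher on day 9. Of 35 tested, 18 rose and 2 fell, a called share of 57.1%, with a median log2 fold change of 0.31 (10 rose and 1 fell with summed libraries). Slc1a2, the main glutamate transporter of astrocytes (chr2:102658659-102790784), was at 386, 411, 384 and 382 CPM on day 5 and at 615, 642, 615 and 643 CPM on day 9, a 1.61-fold rise (log2 0.69, SE 0.05, adjusted p = 2.06e-13). Clu, the secreted chaperone clusterin, rose from 309 ± 11.4 to 443 ± 47.7 CPM. F3, tissue factor, rose from 144 ± 13.1 to 205 ± 4.23 CPM, and Mlc1, a membrane protein of astrocyte endfeet, from 310 ± 7.78 to 394 ± 16.7 CPM. Sparcl1, a secreted matrix protein, was among the members that fell. Aqp4, the water channel of astrocyte endfeet, had 161, 194, 150 and 166 CPM on day 5 and 178, 213, 175 and 199 CPM on day 9, overlapping and not past the threshold (0.19, SE 0.08, adjusted p = 0.0748), but it passed when libraries of the same number were blocked (0.19, adjusted p = 0.00301), without library 2 of WT_Day5 (0.26, adjusted p = 0.0215) and without the filter on low counts (adjusted p = 0.0351). It did not pass in summed libraries (0.20, adjusted p = 0.312).

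Radial glial genes moved in both directions. Of 26 tested, 6 rose and 4 fell, a called share of 38.5% against 22.7% of all genes. Their median was 0.01, near that of all genes (3 and 4 with summed libraries, and 8 lower with the block). Vim, the intermediate filament vimentin, was at 2617, 2505, 2633 and 2506 CPM on day 5 and at 3836, 3354, 3935 and 3339 CPM on day 9 (log2 0.50, SE 0.05, adjusted p = 3.22e-09). Fabp7, the brain fatty acid-binding protein of radial glia, fell from 7133, 7667, 7378 and 7707 CPM to 5769, 5812, 6280 and 6089 CPM (-0.32, SE 0.04). Both changes were wider than the spread within a day, with no overlap. Hes1, a repressor downstream of Notch, fell from 22.5 ± 2.21 to 11.0 ± 0.882 CPM (-1.03, SE 0.15). Ptprz1, a receptor phosphatase, rose 1.25-fold and Id4, an ID factor, rose 1.36-fold. Sox2, the pluripotency and neural stem cell factor, rose from 82.1 ± 5.92 to 102 ± 13.1 CPM (0.31, adjusted p = 0.00269), with overlap between the days and without a call in summed libraries (adjusted p = 0.0863). Hopx, whose promoter drives CreERT2 in these mice, was at 11.2 ± 1.69 and 9.28 ± 1.2 CPM, which did not pass (adjusted p = 0.197), with 27.2% of its exonic length shared with an antisense transcript. Gfap, the astrocytic filament, was at 879, 546, 858 and 565 CPM on day 5 and at 653, 513, 627 and 495 CPM on day 9. Libraries 1 and 3 were the high ones on both days, and the change of -0.32 (SE 0.17, adjusted p = 0.183) was called with the block (-0.29, adjusted p = 2.71e-06) and without the filter on low counts (adjusted p = 1.39e-06), but not in summed libraries (-0.33, adjusted p = 0.492).

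**Figure D2:**
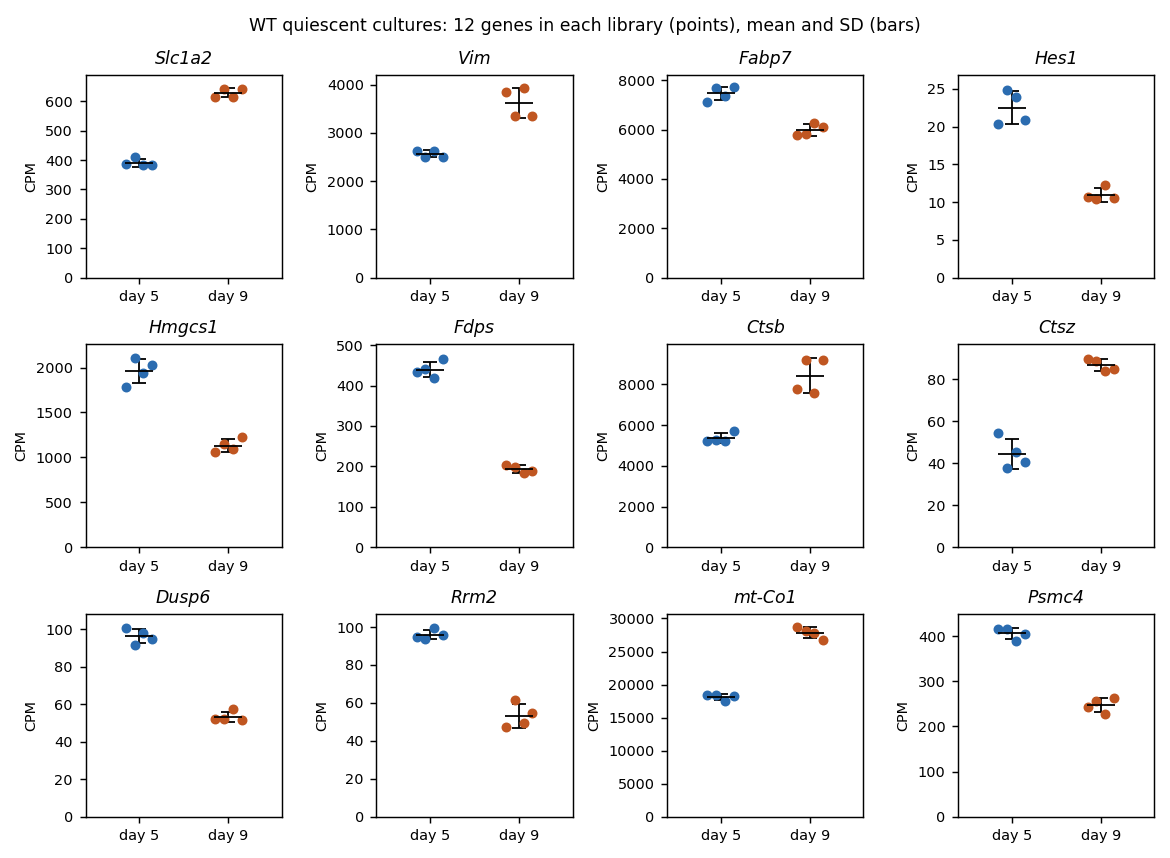
CPM of 12 genes in each WT library (points: blue for day 5, orange for day 9), with mean and SD as bars, each axis starting at 0. In all 12 genes the 4 libraries of day 9 lie apart from the 4 of day 5, for example 615 to 643 against 382 to 411 CPM for Slc1a2 and 184 to 203 against 419 to 465 CPM for Fdps. For Ctsz and Fdps the rule that chose them required this.

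Replication and mitotic genes fell from day 5 to day 9. None of 49 replication and nucleotide supply genes rose and 22 fell, with a median log2 fold change of -0.37, and among 49 mitotic genes 17 fell and 1 rose, with a median of -0.33 (0 and 9, and 0 and 6, with summed libraries). The called shares were 44.9% and 36.7%, against 22.7% of all genes. Rrm2, the small subunit of ribonucleotide reductase, was at 94.6, 93.9, 99.4 and 95.8 CPM on day 5 and at 47.3, 61.7, 49.2 and 54.8 CPM on day 9 (-0.85, SE 0.10, adjusted p = 2.26e-08). Mcm3, part of the replicative helicase, lay at 60.6 to 66.4 CPM and then at 35.2 to 38.3 CPM (-0.79, SE 0.13), and Pclaf, which binds the sliding clamp, fell from 52.7 ± 1.71 to 28.5 ± 1.46 CPM. The days did not overlap for any of these, which for Pclaf the rule of choice required. Cenpf, a kinetochore protein, fell from 23.6 ± 5.43 to 14.1 ± 1.38 CPM and Aurka, a spindle kinase, from 11.2 ± 0.745 to 4.97 ± 1.15 CPM. Top2a, which untangles replicated DNA, fell from 142 ± 10.4 to 113 ± 12.9 CPM (-0.33, adjusted p = 0.0021), a call lost in summed libraries (adjusted p = 0.0729). Mki67, the usual proliferation marker, had 34.0, 40.9, 34.5 and 38.9 CPM and then 30.2, 32.9, 32.2 and 36.3 CPM, which overlapped and did not pass (-0.17, SE 0.15, adjusted p = 0.439). The 1 mitotic gene that rose was Anln, an actin-binding protein of the cleavage furrow that also works outside division.

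The promoters of these genes carry short motifs that are textbook elements of cell cycle control, and they are shown because many members of both lists fell. The cell cycle homology motif was searched as TTTGAA and the E2F motif as TTTGGCGC, each on both strands, from 250 bases before to 50 after the RefSeq start. TTTGAA stood in 74.4% of the promoters of the mitotic list (32 of 43, for 40 of the 49 members), in 17.9% of all 32851 promoters and in 11.8% of the 12101 promoters of tested genes. TTTGGCGC stood in 13% of those of the replication list (6 of 46), in 0.514% of all and in 0.950% of those of tested genes. Parts of 5 promoters that hold them are given in RefSeq's GRCm38.p6, all on the minus strand (chr2:172370521-172370620, chr1:189688037-189688136, chr11:99024190-99024389, chr1:128359706-128359855 and chr1:20820263-20820362), with the motif in capitals as it reads on the printed strand. A match is only a description of the letters.
Aurka: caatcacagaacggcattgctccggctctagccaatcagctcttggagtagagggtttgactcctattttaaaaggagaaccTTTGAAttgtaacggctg
Cenpf: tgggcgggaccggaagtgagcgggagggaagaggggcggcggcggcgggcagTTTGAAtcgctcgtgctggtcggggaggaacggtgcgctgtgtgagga
Top2a: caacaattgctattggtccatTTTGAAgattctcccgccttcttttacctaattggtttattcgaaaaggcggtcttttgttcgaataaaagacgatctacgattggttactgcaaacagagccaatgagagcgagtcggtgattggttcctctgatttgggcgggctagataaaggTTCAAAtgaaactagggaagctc
Mcm6: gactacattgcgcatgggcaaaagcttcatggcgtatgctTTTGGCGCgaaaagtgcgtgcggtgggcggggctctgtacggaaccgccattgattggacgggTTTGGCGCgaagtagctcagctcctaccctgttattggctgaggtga
Mcm3: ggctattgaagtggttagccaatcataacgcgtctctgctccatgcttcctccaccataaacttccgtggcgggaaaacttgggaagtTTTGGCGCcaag

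Regulators of the cycle, a list that mixes genes that drive it with genes that restrain it, moved less uniformly. Of 32 cyclins, CDK inhibitors and pocket proteins, 5 rose and 5 fell (1 and 1 with summed libraries), a called share of 31.25%. Rb1, the pocket protein that restrains E2F, was at 330, 351, 338 and 335 CPM on day 5 and at 434, 412, 451 and 441 CPM on day 9 (log2 0.36, SE 0.05, adjusted p = 1.17e-06). Cdkn1b, the inhibitor p27, rose from 26.7 ± 1.91 to 35.3 ± 2.27 CPM (0.40) and Cdkn1a, the inhibitor p21, fell from 96.8 ± 10.4 to 75.3 ± 5.53 CPM (-0.37). These 2 calls were lost in summed libraries (adjusted p = 0.0931 and 0.0527). Ccnd1, cyclin D1, rose from 49.97 ± 3.03 to 62.3 ± 2.72 CPM, with 23.4% of its exonic length shared with a neighbour and no call in summed libraries (adjusted p = 0.171). Among 47 checkpoint and repair genes 7 fell, Brca1, Xrcc5 and Xrcc6 among them, and 1, Atr, rose (median -0.20, 0 and 3 with summed libraries). Their called share of 17.0% lies under that of all genes. Of 36 p53 targets 4 rose and 2 fell, a share of 16.7% that lies under the 22.7% of all genes.

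Sterol synthesis had the lowest median of the 47 lists. Of 34 genes of cholesterol synthesis and its control 19 fell and 4 rose, a called share of 67.6%, with a median log2 fold change of -0.48 (16 and 2 with summed libraries). Fdps, farnesyl diphosphate synthase (chr3:89093588-89101959), was at 433, 441, 419 and 465 CPM on day 5 and at 203, 199, 184 and 188 CPM on day 9 (-1.19, SE 0.06, adjusted p = 2.45e-17), with 26.7% of its exonic length shared with a predicted transcript. Hmgcs1, an early enzyme of the pathway, was at 1788, 2102, 1944 and 2030 CPM and then at 1061, 1147, 1095 and 1226 CPM (-0.80, SE 0.06). No day 9 library reached the lowest of day 5 in either gene, which for Fdps the rule of choice required. Acat2 fell from 362 ± 25.7 to 190 ± 8.57 CPM, Msmo1, a sterol demethylation enzyme, from 1179 ± 56.5 to 713 ± 22.9 CPM, and Idi1, which isomerises the isoprenoid unit, from 66.0 ± 7.31 to 32.8 ± 2.02 CPM. Insig1, which holds back the sterol-sensing factor SREBP, fell to 0.69 of its day 5 level. The 4 members that rose act outside synthesis: Abca1 exports cholesterol, Npc1 and Npc2 move it out of the lysosome, and Insig2 retains SREBP in the endoplasmic reticulum. Abca1 was at 147, 174, 158 and 157 CPM and then at 211, 227, 230 and 230 CPM (0.50, SE 0.06).

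Only 1 of the 32 promoters found for this list (25 of its 34 genes) held the sterol regulatory element searched as TCACNCCAC on both strands, a share of 3.12% against 1.24% of all promoters. It was that of Hmgcs1, printed because this gene carries both the element and the fall (chr13:119690171-119690350, plus strand, GRCm38.p6), with the element in capitals.
Hmgcs1: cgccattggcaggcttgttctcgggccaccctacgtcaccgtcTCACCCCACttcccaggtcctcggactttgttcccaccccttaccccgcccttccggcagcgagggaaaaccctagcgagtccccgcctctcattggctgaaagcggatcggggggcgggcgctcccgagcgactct

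Fatty acid genes split. Of 25 genes of synthesis and desaturation 6 rose and 7 fell (1 and 4 with summed libraries), a called share of 52% against 22.7% of all genes. Acly, which makes cytosolic acetyl-CoA, fell from 158 ± 9.58 to 102 ± 10.2 CPM, and Elovl6, an elongase, from 103 ± 1.51 to 69.5 ± 5.19 CPM. Fads1, a desaturase of polyunsaturated fatty acids, rose from 279 ± 10.6 to 367 ± 18.1 CPM. In fatty acid oxidation 2 of 28 rose and 1 fell (5 and 2 with the block), a share of 10.7% that is under the background.

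Lysosomal genes rose more often than they fell. Of 66 tested 23 rose, 5 fell and 38 did not pass, a called share of 42.4% against 22.7% of all genes, with a median of 0.16 (9 and 2 with summed libraries). Ctsb, the protease cathepsin B (chr14:63122462-63145923), was at 5216, 5289, 5222 and 5704 CPM on day 5 and at 7770, 9173, 7593 and 9179 CPM on day 9 (log2 0.65, SE 0.06, adjusted p = 1.47e-09). Ctsz, cathepsin Z, rose from 54.1, 37.5, 45.2 and 40.3 CPM to 89.4, 88.4, 83.9 and 84.6 CPM (0.97, SE 0.09), and Ctso, cathepsin O, from 147 ± 7.4 to 207 ± 3.2 CPM. Day 9 was above day 5 in every library for the 3 cathepsins, which for Ctsz the rule of choice required. Ctsb shares 12.8% of its exonic length with Fdft1, the squalene synthase, which fell (-0.48, SE 0.06, adjusted p = 2.31e-07), so the neighbours moved in opposite directions. The 5 members that fell were the tetraspanin Cd63 and 4 subunits of the proton pump that acidifies the lysosome, Atp6v0e, Atp6v0b, Atp6v1d and Atp6v1e1. Of 38 autophagy genes 3 rose and 2 fell (2 and 0 with summed libraries), a share of 13.2% that lies under the 22.7% of all genes. Of 30 sphingolipid and ganglioside genes 6 rose and 3 fell (2 and 0 with summed libraries), a share of 30% against 22.7%.

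The machinery of protein synthesis and turnover fell broadly. Of 84 cytosolic ribosomal protein genes 75 fell and 0 rose, a called share of 89.3%, with a median of -0.41 (68 with summed libraries), while their share of all counts went from 2.00% ± 0.0323 to 1.48% ± 0.0409 (SD, n = 4). Rps18 was at 191, 191, 175 and 195 CPM and then at 123, 132, 119 and 126 CPM (-0.59, SE 0.06, adjusted p = 2.03e-09), and Rpsa fell from 197 ± 11.4 to 130 ± 8.24 CPM. Ribosomal protein genes have many pseudogenes, and how unique mapping split their reads was not tested. Of 46 proteasome genes 32 fell and 0 rose, a called share of 69.6%, with a median of -0.35 (24 with summed libraries). Psmc4, an ATPase of the regulatory particle, was at 417, 416, 390 and 404 CPM and then at 243, 257, 229 and 262 CPM (-0.72, SE 0.06), and Psmd14, its deubiquitinase, fell from 535 ± 20.8 to 382 ± 11.9 CPM. The spread within a day was small beside these gaps, which the choice of these genes by smallest p within their lists favours. Of 26 chaperone genes of the endoplasmic reticulum 10 fell and 2 rose (5 and 0 with summed libraries), a called share of 46.2%. Hspa5, the central chaperone BiP, fell from 892 ± 24.7 to 628 ± 26 CPM, and Manf, a secreted stress factor, from 142 ± 8.1 to 99.0 ± 8.86 CPM. Of 28 actin cytoskeleton genes 7 fell and 0 rose (2 and 0 with summed libraries, 8 and 3 with the block), a share of 25.0% that is near the 22.7% of all genes. Among them Actb, cytoplasmic actin, fell from 2493 ± 55.7 to 1955 ± 76.4 CPM.

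Mitochondrial genes diverged by genome. All 7 mitochondrially encoded mRNAs tested rose, with a median of 0.57, also in summed libraries, and 0 of 74 nuclear genes of oxidative phosphorylation rose while 35 fell, with a median of -0.14 (15 with summed libraries, and 2 higher and 42 lower with the block). The called share of the nuclear genes was 47.3%, against 22.7% of all genes. mt-Co1, a core subunit of cytochrome oxidase (mitochondrial genome, 5328 to 6872), was at 18427, 18402, 17523 and 18257 CPM on day 5 and at 28712, 28065, 27823 and 26679 CPM on day 9 (0.62, SE 0.03, adjusted p = 7.56e-17). mt-Cytb, of the third respiratory complex, rose from 22904 ± 265 to 32725 ± 1192 CPM. Ndufa4 fell from 861 ± 20.0 to 642 ± 29.0 CPM and Cycs, cytochrome c, from 431 ± 13.6 to 319 ± 22 CPM. Nuclear long noncoding RNAs also rose, 5 of 9 (55.6%) with 0 lower (2 with summed libraries), among them Malat1 from 15780 ± 638 to 19516 ± 1512 CPM. No measure of RNA integrity is given in the sources used here, and the part of RNA quality in these shares was not tested.

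Genes of growth factor signalling were called about as often as all genes, and those called were mostly lower. Of 25 FGF, EGF and ERK feedback genes 5 fell and 1 rose (3 and 0 with summed libraries), 24% against 22.7% of all genes. Dusp6, an ERK phosphatase that ERK itself induces (chr10:99263231-99267489), was at 101, 91.7, 98.1 and 94.8 CPM and then at 52.3, 51.9, 57.4 and 51.5 CPM (-0.85, SE 0.10, adjusted p = 3.13e-08). Spry4, an inhibitor of receptor tyrosine kinase signalling, fell from 44.5 ± 3.21 to 33.0 ± 2.35 CPM, and Spry1 from 16.6 ± 3.31 to 8.14 ± 1.42 CPM, with 24.4% of the exonic length of Spry1 shared with a predicted transcript. The receptor Fgfr3 was the member that rose, 1.34-fold. In the Notch pathway 4 of 19 fell, among them the ligand Jag1, from 67.3, 78.2, 71.4 and 81.0 CPM to 44.8, 30.7, 43.6 and 32.9 CPM (-0.97, SE 0.11, adjusted p = 3.32e-08), and the target Hes1. The 2 that rose were the ligand Dll1, at 2.23 CPM on day 9, and Dner (1 rose and 2 fell with summed libraries). The called share of the Notch list was 31.6%. In the Wnt pathway Tcf7, a transcription factor, fell from 21.1 ± 2.8 to 10.7 ± 1.85 CPM and Lgr4, an R-spondin receptor, rose from 13.6 ± 1.2 to 23.5 ± 3.87 CPM. In all 3 of 27 Wnt genes fell and 2 rose, a share of 18.5% that lies under the 22.7% of all genes.

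Of 32 BMP pathway genes 3 rose and 3 fell (1 and 0 with summed libraries, and 5 lower with the block), a share of 18.8% against 22.7% of all genes, with log2 fold changes from -0.69 to 0.89 and a median of 0.07. Id4, an ID factor that is also in the radial glial list, was at 61.9, 54.6, 50.7 and 53.7 CPM on day 5 and at 78.8, 71.7, 76.9 and 70.8 CPM on day 9, without overlap (0.44, SE 0.08, adjusted p = 7.79e-05), and it was the call kept in summed libraries (adjusted p = 0.0139). Id1, a direct BMP target, was at 95.7, 83.0, 106 and 81.3 CPM and then at 88.2, 88.2, 84.7 and 80.1 CPM, a log2 difference of -0.10 (SE 0.12, adjusted p = 0.58). Id3 was at 381, 230, 359 and 242 CPM and then at 310, 231, 299 and 223 CPM (-0.19, SE 0.19, adjusted p = 0.517), with libraries 1 and 3 again the high ones on both days, and it passed with the block (-0.17, adjusted p = 0.0207) and without the filter (adjusted p = 0.0366), but not in summed libraries (adjusted p = 0.745). Bmpr1a, the type I receptor, rose 1.13-fold (adjusted p = 0.00621) and Smurf1, a ubiquitin ligase that removes SMADs, rose 1.48-fold. Both calls were lost in summed libraries, and that of Smurf1 also without library 2 (adjusted p = 0.0525) or library 4 (adjusted p = 0.0979) of WT_Day5. Bmper, a secreted regulator of BMP, fell from 95.4 ± 6.87 to 80.2 ± 5.52 CPM (-0.25, adjusted p = 0.0147), a call lost in summed libraries (adjusted p = 0.176), without library 2 of WT_Day5 (adjusted p = 0.0501) and without library 4 of WT_Day9 (adjusted p = 0.0581). The other members that fell were Hey1 and Fstl1.

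Hypoxia-responsive genes rose and none fell: 11 of 28, a share of 39.3%, with a median of 0.15 (4 with summed libraries). P4ha1, a collagen prolyl hydroxylase, was at 153, 163, 166 and 155 CPM on day 5 and at 231, 194, 247 and 201 CPM on day 9 (log2 0.46, SE 0.08, adjusted p = 2.09e-05). Vegfa, the vascular growth factor, rose from 87.8 ± 4.99 to 120 ± 6.07 CPM and Pdk1, a kinase that limits entry of pyruvate into mitochondria, from 157 ± 6.0 to 207 ± 10.3 CPM. Of 22 glycolysis genes 6 rose and 0 fell (3 with summed libraries, and 11 higher and 1 lower with the block), a share of 27.3% against 22.7% of all genes. Slc16a1, the lactate and pyruvate carrier MCT1, rose from 706 ± 34.5 to 988 ± 18.2 CPM (0.48, SE 0.05), and Pfkm, a phosphofructokinase, 1.26-fold. The core of the hypoxia response element was searched as ACGTG on both strands. It stood in 54.3% of the promoters of the hypoxia list (19 of 35, for 23 members), in 19.6% of all and in 25.4% of those of tested genes. The stretch of P4ha1 is shown as an example (chr10:59323196-59323345, plus strand, GRCm38.p6), with the core in capitals as read from the other strand.
P4ha1: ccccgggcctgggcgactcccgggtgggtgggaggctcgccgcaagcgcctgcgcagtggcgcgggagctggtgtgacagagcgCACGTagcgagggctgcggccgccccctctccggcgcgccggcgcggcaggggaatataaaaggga

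Interferon-stimulated genes rose at low levels. Of 26 tested 13 rose and 1 fell, with a median of 0.56 (9 and 1 with summed libraries). The called share was 53.8%, against 22.7% of all genes. Ifit2 was at 22.1, 27.3, 28.7 and 28.9 CPM on day 5 and at 42.3, 54.6, 43.2 and 40.8 CPM on day 9 (log2 0.74, SE 0.10, adjusted p = 5.29e-07), and Gbp2, a guanylate-binding GTPase, at 54.8, 63.1, 56.8 and 61.4 CPM and then at 83.9, 92.5, 78.5 and 83.9 CPM (0.52, SE 0.08). Ifit3b rose from 6.61 ± 0.878 to 15 ± 0.929 CPM and Ifit3 from 17.4 ± 1.75 to 27.8 ± 3.69 CPM. The IFIT proteins bind viral RNA, and Ifit3 and Ifit3b are near-identical copies, so that reads may have been split between them. The 6 defining markers of microglia summed to 1.10 to 1.6 CPM and then to 0.597 to 2.05 CPM, with C1qa at 0 in all 8 libraries. The wider list of 14 microglial genes took 0.00270% ± 0.000374 of the counts on day 5 and 0.00361% ± 0.000531 on day 9, without overlap (SD, n = 4 each, two-sided exact permutation p = 0.0286, adjusted p = 0.0413 over 13 measures). Of its 3 tested members 1 rose and 0 fell. The part of such cells in the interferon result was not tested. Of 14 antigen presentation genes 4 rose and 1 fell (1 and 0 with summed libraries), a called share of 35.7%.

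The interferon-stimulated response element was searched on both strands as a pair of GAAA words with any 2 bases between them. It stood in 45.5% of the promoters of the list (10 of 22, for 18 members), in 3.44% of all and in 2.81% of those of tested genes. The stretches of 4 members are shown to let the copies be compared (chr19:34607747-34607956, chr19:34583349-34583528, chr19:34640739-34640888 and chr3:142620543-142620662, plus strands, GRCm38.p6), with the element in capitals as its reverse complement. Ifit3b and Ifit3 each held 2 copies, Ifit1 2 and Gbp2 1.
Ifit3b: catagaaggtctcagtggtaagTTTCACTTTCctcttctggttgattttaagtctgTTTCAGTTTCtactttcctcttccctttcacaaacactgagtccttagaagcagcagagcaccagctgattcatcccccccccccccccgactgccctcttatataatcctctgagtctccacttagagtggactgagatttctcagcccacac
Ifit3: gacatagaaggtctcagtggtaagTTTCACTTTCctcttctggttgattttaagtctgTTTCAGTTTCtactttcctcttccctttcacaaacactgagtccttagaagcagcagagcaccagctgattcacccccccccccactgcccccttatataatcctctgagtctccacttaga
Ifit1: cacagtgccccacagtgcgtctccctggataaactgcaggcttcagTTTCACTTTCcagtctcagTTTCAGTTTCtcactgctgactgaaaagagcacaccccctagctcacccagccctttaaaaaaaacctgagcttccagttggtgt
Gbp2: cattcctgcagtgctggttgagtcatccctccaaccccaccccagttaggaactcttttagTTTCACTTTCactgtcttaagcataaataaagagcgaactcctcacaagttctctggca

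Clock genes rose more often than they fell. Of 26 tested 12 rose and 1 fell, with a median of 0.24 (3 and 0 with summed libraries). The called share was 50%, against 22.7% of all genes. Hlf, an output factor of the clock, was at 18.8, 14.9, 15.6 and 15.4 CPM and then at 32.2, 29.5, 31.8 and 25.9 CPM (log2 0.89, SE 0.14, adjusted p = 5.24e-06). The member that fell was Arntl, the activator BMAL1, at 5.84 ± 1.22 and then 3.84 ± 0.502 CPM. The hour of harvest is not given in the sources used here. Per3, a repressor of the clock, rose 1.38-fold, a call lost in summed libraries (adjusted p = 0.0800).

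Matrix genes rose more often than they fell, 11 of 41 against 3, with a median of 0.22 (4 and 3 with summed libraries). Their called share was 34.1%, against 22.7% of all genes. Fn1, fibronectin, was at 116, 95.7, 113 and 110 CPM on day 5 and at 182, 175, 170 and 161 CPM on day 9 (log2 0.66, SE 0.08, adjusted p = 5.1e-08), with no overlap. The 3 that fell were Tnc, Spp1 and Sparcl1. Among 20 genes of metallothioneins and iron handling 6 rose and 3 fell, and Fth1, ferritin heavy chain, rose from 2562 ± 279 to 3760 ± 355 CPM. Of 39 glutathione and NRF2 genes 7 rose and 7 fell, of 34 ATF4 targets 5 and 4, of 28 reactive glia and complement genes 6 and 6, of 21 transport genes 5 and 3, of 18 immediate early genes 3 and 1, and of 24 genes of H3K4 methylation 1 and 2. The shares of these 7 lists ran from 12.5% to 45.0%, against 22.7% of all genes. Of 11 insulin-like growth factor genes 1 rose and 0 fell, of 15 histone genes 2 and 1, of 11 neuronal genes 1 and 3, and of 7 ependymal genes 3 and 0. Their shares ran from 9.09% to 42.9%.

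**Figure D3:**
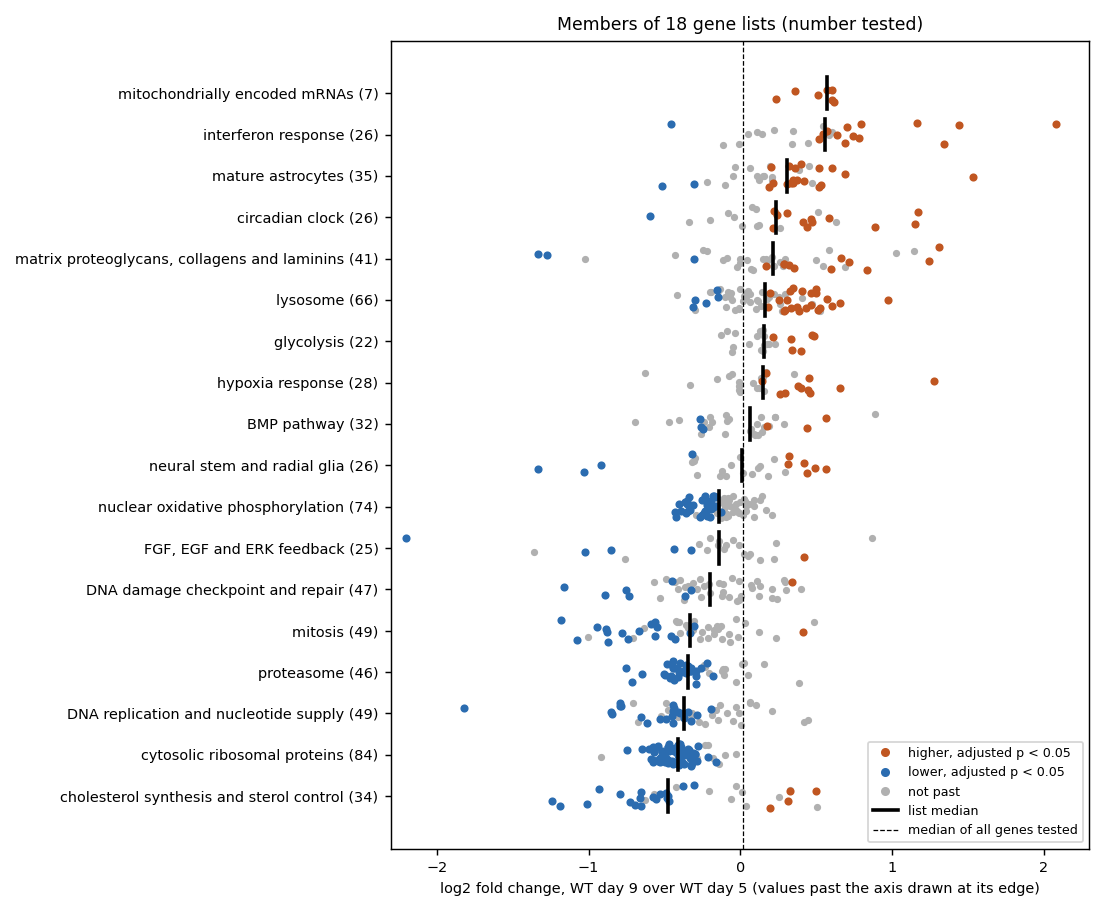
Log2 fold change of WT day 9 over WT day 5 (x axis) for each tested member of 18 lists (rows, with the number tested), orange where higher and blue where lower at an adjusted p under 0.05, grey where not past. Thick bars are list medians and the dashed line is the median of all genes tested. List medians run from -0.48 for cholesterol synthesis to 0.57 for mitochondrially encoded mRNAs.

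Of 6 genes picked here from those the study names as Setd1a targets, 3 rose in WT cultures from day 5 to day 9 (5 with the block, 0 with summed libraries). The study lists more candidates and tested the function of Bhlhe40 only. The study chose its targets on libraries of this series, so that this count is not independent evidence. Bhlhe41 rose from 105, 119, 118 and 109 CPM to 135, 144, 138 and 142 CPM (log2 0.31, SE 0.06, adjusted p = 0.000388), Fbxl5, which senses iron, from 83.7 ± 5.52 to 109 ± 10.6 CPM, and Atr, the replication stress kinase, from 71.9 ± 4.02 to 90.8 ± 6.50 CPM, the last call being lost with GC and length correction (adjusted p = 0.0640). Bhlhe40, a repressor of the same family as Bhlhe41, was at 266, 283, 280 and 283 CPM and then at 267, 319, 296 and 330 CPM, with overlap (0.12, SE 0.07, adjusted p = 0.231). It passed with the block (0.12, adjusted p = 0.0351) but not in summed libraries (adjusted p = 0.593). Dazap2 lay at 1424 to 1514 CPM and then at 1389 to 1506 CPM (-0.02, SE 0.04, adjusted p = 0.791). Setd1a itself was at 2.13 ± 0.581 and 1.88 ± 0.494 CPM (adjusted p = 0.84), and 52.3% of its exonic length is shared with other transcripts, so that unstranded counts may mix them.

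The WT libraries of day 6, which were part of the same table, stood apart from those of both other days. Transcripts that collect ribosomal RNA reads took 4.94% to 5.33% of their counts, against 1.84% to 2.01% in the libraries of days 5 and 9, and multidimensional scaling of all 24 libraries set them at 1.02 to 1.07 along its first axis, against -0.76 to -0.33. The part of this in the day 6 levels was not tested. Of the 2848 genes called between days 5 and 9, the day 6 mean lay between the means of days 5 and 9 for 1092 (38.3%), past the day 9 mean for 1258 (44.2%) and on the other side of day 5 for 498 (17.5%). Fdps went from 440 CPM on day 5 to 49.8 on day 6 and 193 on day 9. Hmgcs1 went from 1966 to 381 and 1132 CPM, and Mcm3 from 63.8 to 9.42 and 36.7 CPM. These 3 genes were lower on day 6 than on either other day. Ccnd2, cyclin D2, had means of 2597, 707 and 2441 CPM, the days 5 and 9 not differing past the threshold (-0.09, SE 0.06, adjusted p = 0.263). Fn1 fell to 51.3 CPM on day 6 before the 172 CPM of day 9. Slc1a2 was at 391 CPM on both day 5 and day 6, and Vdr at 51.6, 59.9 and 105 CPM. Vim had 2565, 3926 and 3616 CPM. If the changes of medium every 2 days are counted from day 2, a change falls on day 6 but not on day 5 or 9. The hours between a change and each harvest are not given in the sources used here, and their part was not tested.

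**Figure D4:**
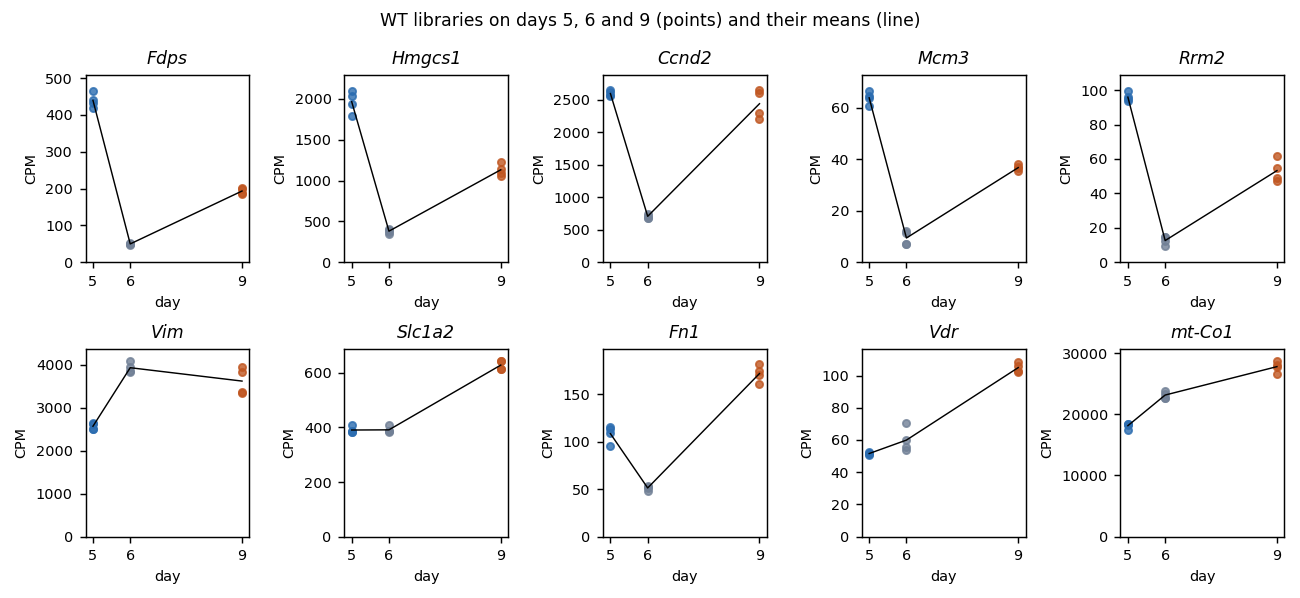
CPM of 10 genes in the WT libraries of days 5, 6 and 9 (x axis, points), with lines through the means and each y axis starting at 0. Fdps, Hmgcs1, Ccnd2, Mcm3, Rrm2 and Fn1 are lowest on day 6, while Vdr and mt-Co1 rise at each step.

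Part of the change with time was shared by the libraries labelled Setd1a KO and part was not. Setd1a did not separate the genotypes, with means of 2.23 CPM on day 5 and 1.80 CPM on day 9 in KO, so that the labels could not be checked by this gene. Between the same days 3064 genes (24.4%) changed in KO, 1265 of them also called in WT and 1170 of those in the same direction. The shared genes were 44.4% of the WT calls and 41.3% of the KO calls, and the log2 fold changes of WT and KO had a Spearman correlation of 0.346 across the 12549 genes, which are not independent. The time effect itself differed between the genotypes for 1156 genes (9.21%, interaction test in the same fit), more often lower in WT (751, 5.98%) than higher (405, 3.23%), and for 40 with summed libraries and 1770 with the block. Ndrg1 rose in WT (log2 1.28) and was at -0.01 in KO (difference 1.29, SE 0.19, adjusted p = 3.1e-05). Adam11 rose by 1.52 in WT and was at 0.33 in KO, and Ecm1, a matrix protein, rose in WT (0.81) and fell in KO (-0.37). Fn1 likewise rose in WT (0.66) and fell in KO (-0.33).

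In the other direction, Clp1, an RNA kinase of tRNA splicing, fell in WT (-0.60) and rose in KO (0.68), a difference of -1.28. Angpt1, an angiopoietin, fell in WT (-0.78) and rose in KO (0.45), and Fgf14, an intracellular FGF homologue that binds sodium channels, fell in WT (-0.66) and rose in KO (0.38). Ftsj3 fell in WT (-0.99) and was at 0.11 in KO. Ifit3 rose in both, by 0.69 in WT and 1.76 in KO (difference -1.07, adjusted p = 0.000129), and Gbp2 likewise rose less in WT. Of the 34 sterol genes 10 had an interaction past the threshold, 29.4% against 9.21% of all genes, the change in WT being the lower one in all 10. The differences were -0.53 for Hmgcs1 (adjusted p = 8.08e-05), -0.62 for Acat2 and -0.27 for Fdps. Sterol genes were not alone in this. Of 46 proteasome genes 14 had an interaction (30.4%), all 14 lower in WT. The share was 28.6% for mature astrocyte genes (6 higher and 4 lower in WT) and 28.6% for reactive glia and complement genes (2 higher and 6 lower). Slc1a2, mt-Co1, Fabp7, Rps18 and Dusp6 changed by -0.05, 0.00, -0.04, -0.03 and -0.11 more in WT than in KO, none past the threshold.

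**Figure D5:**
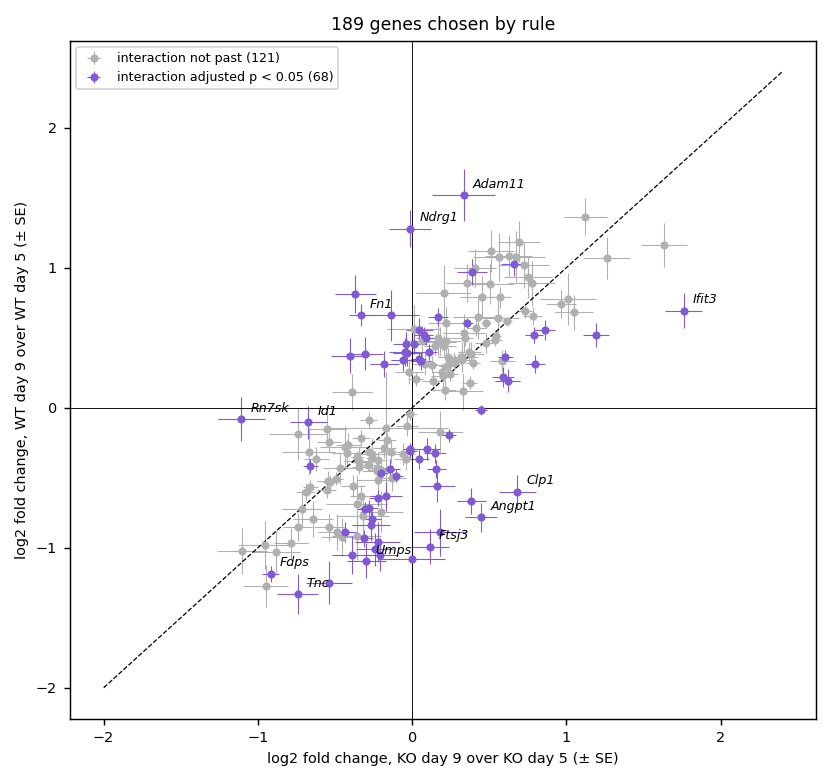
Log2 fold change of day 9 over day 5 in KO (x axis) and in WT (y axis) for the genes chosen by rule, with SE bars. Purple marks an interaction at an adjusted p under 0.05, and the dashed line marks equal change. Ndrg1, Adam11 and Fn1 lie above the line, while Clp1, Angpt1, Ftsj3 and Ifit3 lie below it.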

How the data were processed

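RNA was measured by RNA-seq of SMART-seq2 libraries, a protocol that does not mark strand. The authors deposited raw gene counts, made from reads converted with bcl2fastq 2.17.1.14, trimmed with Trimmomatic 0.32 and aligned with STAR 2.5.2a to GRCm38, keeping uniquely mapped reads. The counts of 24 libraries (6 groups of 4: WT and KO on days 5, 6 and 9) were fitted together in edgeR 4.0.16 (R 4.3.3). TMM scaling was used (factors 0.973 to 1.04), with a filter on low counts (minimum count 10, minimum total 15) that kept 12549 of 39017 genes, and the quasi-likelihood test with Benjamini-Hochberg adjustment at 0.05. The contrast was WT_Day9 minus WT_Day5, and the interaction subtracted the same contrast in KO. The tables of days 4 and 7 were scaled apart from this one and were not used here. Rows without an annotated gene held at most 0.184% of a library's counts.

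Levels are CPM on TMM-scaled library sizes with mean ± SD over 4 libraries. The SE of a log2 fold change was taken from its F statistic. The common biological coefficient of variation was 0.0962. CPM is not corrected for gene length, so levels of different genes, and the marker sums set side by side, are not strictly comparable. The members and the 47 gene lists were chosen with earlier results of these data known. The 189 named genes were a fixed set of marker genes, the 15 highest and 15 lowest changes among called genes with a mean log2 CPM of at least 4 and no overlap of the days, up to 4 members of each list with the smallest p among those called with a mean log2 CPM of at least 3, and the 5 highest and 5 lowest interactions. Other genes in the text were chosen after their values were seen, and some genes that the rule names are not reported here. Gene positions and shared exonic lengths come from an annotation of GRCm38.

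Replicate numbers were shared by the groups, and a block on the number was an alternative fit. Deviations from the group means correlated at 0.0408 to 0.0757 between same-numbered libraries over all 12549 genes and at 0.101 to 0.234 over the 6474 genes with a mean log2 CPM of at least 4 (other numbers -0.221 to 0.172). On the second reading the numbers were taken as a possible pairing, and values with the block are given. Only 3 of the 4 day 5 libraries correlated best with their own number on that reading. The main fit has no block, so its p-values ignore any such pairing. Libraries 1 and 3, and 2 and 4, being alike would also give such correlations. Alternatives were other scalings, filters and tools (DESeq2 1.42.0, limma 3.58.1), GC and length correction, equal depth, summed libraries and leaving out each library. The model was tested on simulated data. RefSeq promoters were matched by symbol and searched for the motifs spelled out in the text.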

Additional observations from a re-analysis of the deposited data

Results flagged for a closer look

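In 18 of 284 sets of 4 values 1 library stood apart, its gap to the nearest of the others, as a share of the range, being over Dixon's 95% critical value. Chance flags about 1 in 20 such sets. On day 5 the gap took these shares of the range: Amy1 (0.88), Bhlhe40 (0.835), Cavin2 (0.900), Clp1 (0.836), Ctsb (0.852), Hspa5 (0.984), Pdk1 (0.836), Pfkm (0.831), Slc1a2 (0.865), Umps (0.83), Vegfa (0.848) and mt-Cytb (0.898). In Hspa5 library 2 was low, while the days stayed apart. On day 9 they were Abca1 (0.857), Atp6v0e (0.838), Dusp6 (0.87), Hes1 (0.911) and Xrcc5 (0.865). The share of ependymal marker counts on day 5 gave 0.885.

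The change from day 5 to day 9 differed between WT and KO for 50 of the 129 genes given with the results, tested as the interaction of genotype and time in edgeR's quasi-likelihood fit. The log2 difference, WT change minus KO change, was positive for Ndrg1 (1.29), Adam11 (1.18), Ecm1 (1.18), Fn1 (0.99), Anln (0.73), Ctsz (0.58), Id1 (0.57), Fth1 (0.51), Ccnd1 (0.49), Vegfa (0.49), Cdkn1b (0.45), P4ha1 (0.44), F3 (0.44), Vim (0.41), Vdr (0.36), Mlc1 (0.30), Fads1 (0.29) and Pfkm (0.28). It was negative for Clp1 (-1.28), Angpt1 (-1.23), Ftsj3 (-1.11), Brca1 (-1.07), Ifit3 (-1.07), Fgf14 (-1.05), Ifit1 (-0.94), Omg (-0.84), Umps (-0.80), Idi1 (-0.77), Cavin2 (-0.71), Gbp2 (-0.67), Acat2 (-0.62), Tnc (-0.59), Hmgcs1 (-0.53), Cct5 (-0.52), Xrcc6 (-0.48), Dazap2 (-0.47), Sfpq (-0.45), Psmc4 (-0.44), Aqp4 (-0.42), Atp6v1d (-0.42), Msmo1 (-0.42), Xrcc5 (-0.41), Psmd14 (-0.38), Sparcl1 (-0.37), Fdft1 (-0.32), Atp6v0e (-0.30), Clu (-0.27), Fdps (-0.27), Rb1 (-0.24) and Cd63 (-0.23). Both genotypes had 4 libraries a day. With summed libraries 40 of all genes tested passed this test.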

How the results depend on the processing

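The count of 2848 genes kept within 1.5 times under all planned settings but the summed libraries, which gave 981 (414 higher, 567 lower), and the requirement of a 2-fold change, which gave 260. Leaving out each library gave 2342 to 2635, with 1111 to 1274 higher and 1231 to 1361 lower. DESeq2 gave 2901, limma-voom 2866, other scalings 2831 to 2882, equal depth 2231, and no called gene changed sign in any of them. The interaction count of 1156 became 1770 with the replicate block (684 higher in WT) and 40 with summed libraries (7 higher, 33 lower). The 405 higher became 226 with GC and length correction and 229 at equal depth. Leaving out each library gave 913 to 1235 interactions, 287 to 405 higher and 626 to 830 lower. The causes were not tested, except that summing leaves 2 libraries a group. The block on the replicate number gave 3372 genes for WT over time, 2844 of them among the 2848. Besides the genes named with it, it changed the calls of Ccnd2 (-0.09, adjusted p = 0.0499) and Slc1a3 (-0.14, adjusted p = 0.00107), which also passed with GC and length correction (adjusted p = 0.0141 and 0.0190) but not in summed libraries (0.466 and 0.476). Of the 189 named genes 173 were past the threshold, 127 of them in every setting and 128 in summed libraries, and none was reversed. Smurf1 also lost its call at equal depth (adjusted p = 0.103) and Xrcc6 in summed libraries (adjusted p = 0.0708). Depth limits the low genes: the shallowest library of day 5 held 4406174 counts and the deepest of day 9 held 11027335.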

Other observations

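The 17 gene families outside the lists were gathered whole by symbol after values had been seen, and are given as counts without a test of the family. Subunits of the chaperonin TRiC, which folds actin and tubulin, fell in 7 of 8 genes with 0 higher (median log2 fold change -0.47). Cct5 was at 692, 721, 657 and 711 CPM on day 5 and at 450, 432, 448 and 466 CPM on day 9. Of 7 beta tubulins 6 fell (median -0.66), with Tubb5 at 698 ± 49.6 and then 443 ± 38.9 CPM and Tubb4b at 110 ± 9.83 and then 67.6 ± 5.76 CPM. Of 76 mitochondrial ribosomal proteins 28 fell and 0 rose (median -0.20), led by Mrpl20 from 191 ± 10.4 to 124 ± 4.51 CPM. Of 12 eIF3 subunits, which bring the small ribosomal subunit to mRNA, 7 fell, and of 9 subunits of the RNA exosome 5 fell, with 0 higher in either.

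Some families had more genes higher than lower. Clk1 and Clk4, kinases of splicing factors, rose from 429 ± 12.4 to 674 ± 16.0 CPM and from 225 ± 16.4 to 330 ± 12.1 CPM, the other 2 CDC-like kinases not passing. In the LDL receptor family, which takes up lipoproteins, 6 of 13 rose and 0 fell (median 0.32), among them Lrp4, from 26.3 ± 2.11 to 40.1 ± 2.81 CPM. Of 19 genes of the protocadherin beta cluster 7 rose and 0 fell (median 0.48), and these near-identical neighbours may have shared reads. Potassium channel subunits (7 higher and 2 lower of 31), semaphorins (3 and 1 of 11), S100 proteins (4 and 1 of 8) and glutamate receptor subunits (2 and 0 of 8) had few calls or calls in both directions. So had SR splicing factors (1 higher and 3 lower of 10), subunits of RNA polymerases I and III (1 and 3 of 14), TIM and TOM import subunits (1 and 6 of 22), prefoldin subunits (0 and 2 of 6) and alpha tubulins (0 and 2 of 4). Of all genes tested, 11.3% rose and 11.4% fell.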
